A study of Mus musculus with 6 samples.

Results

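The 10 genes described here belong to the follicular helper program of CD4+ T cells. They were taken by symbol from a table of 55401 gene entries, and all 10 were found. They are Bcl6, Pou2af1, Ascl2 and Tox2, which encode nuclear regulators, Sh2d1a, which encodes the adaptor SAP, and Cxcr5, Il6st, Slamf6, Btla and Cd200, which encode surface proteins. The values come from RNA-seq of wild-type C57BL/6 CD4+ T cells, taken from spleens of naive mice and stained with the division dye CFSE. In the itaconate group (3 libraries) the cells were kept for 48 h in 5 mM itaconate, a metabolite that macrophages produce when activated, and in the control group (3 libraries) for the same time in 5 mM NaCl. Cells of both groups were stimulated throughout with antibodies against CD3 and CD28 and with 200 U of IL-2. The control columns carry the code NAC, which the files do not explain. It was read as NaCl, the only other treatment in the labels, and could also stand for N-acetylcysteine.

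Follicular helper T cells enter B cell follicles and help B cells through germinal centre reactions. BCL6, a zinc finger repressor, is their defining transcription factor and opposes Blimp-1, the product of Prdm1. The chemokine receptor CXCR5 guides the cells towards CXCL13 in follicles, and SAP joins SLAM family receptors to Fyn so that T and B cells stay in contact. IL-6 and IL-21 favour the program through STAT3, whereas IL-2 opposes it through STAT5 and Blimp-1. POU2AF1, also called OBF1 or BOB.1, is a coactivator that binds the octamer factors OCT1 and OCT2 on DNA and is best known from B cells.

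Promoter windows of 250 bases before the annotated start were read from RefSeq's GRCm38.p6, the assembly also called mm10, for 8 of the 10 genes. Those of Bcl6 and Pou2af1 are shown because these genes rose most among the 10. Bcl6 has 2 annotated starts 7569 bases apart. The window of the outer start lies at chr16:23988853-23989102 and that of the inner start at chr16:23981284-23981533, between exons of the gene, both on the minus strand. The Pou2af1 window lies at chr9:51213440-51213689 on the plus strand, upstream of the gene. Capitals mark matches, on either strand, to any of 9 motifs chosen with the sequences in view.
Bcl6, outer start: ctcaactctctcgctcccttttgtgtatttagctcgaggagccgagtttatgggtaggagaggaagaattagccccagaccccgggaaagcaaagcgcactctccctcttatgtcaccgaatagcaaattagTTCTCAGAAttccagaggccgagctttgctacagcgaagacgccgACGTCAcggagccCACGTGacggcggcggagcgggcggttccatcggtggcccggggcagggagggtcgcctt
Bcl6, inner start: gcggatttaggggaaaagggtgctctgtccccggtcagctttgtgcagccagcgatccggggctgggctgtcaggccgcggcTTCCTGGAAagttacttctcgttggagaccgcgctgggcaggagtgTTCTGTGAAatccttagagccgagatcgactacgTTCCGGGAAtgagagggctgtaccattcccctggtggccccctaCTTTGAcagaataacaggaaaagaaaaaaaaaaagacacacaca
Pou2af1: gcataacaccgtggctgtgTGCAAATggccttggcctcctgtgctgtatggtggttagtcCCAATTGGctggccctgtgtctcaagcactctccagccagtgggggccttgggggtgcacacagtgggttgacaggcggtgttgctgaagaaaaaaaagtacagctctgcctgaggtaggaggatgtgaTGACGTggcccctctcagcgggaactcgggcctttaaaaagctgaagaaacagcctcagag
The motifs searched were TTCNNNGAA, bound by many STAT dimers, and TTCNNGAA, which has 1 base fewer between the same ends. The octamer ATGCAAAT and its shorter form TGCAAAT, which the octamer contains, were also searched. The others were CTTTGA, a core bound by TCF and LEF factors, and the cAMP response core TGACGT. The E-box CACGTG was searched with them, as were CCAAT, the box named after its letters, and the TATA box TATAAA. The inner Bcl6 window held 3 matches to TTCNNNGAA, which began 168, 122 and 88 bases before the start, and the outer window held 1, at 118 bases. Of 32851 promoter windows, some of which overlap, 7.02% held this motif, and 9 windows (0.0274%) held 3 or more. The cutoff of 3 was taken from the inner Bcl6 window, which is among these 9, so the share is no test of enrichment. The outer Bcl6 window and the Pou2af1 window each held a match to TGACGT, at 73 and 61 bases before the start, as did 6.47% of windows. The Pou2af1 window also held TGCAAAT at 231 bases (3.56% of windows), without the leading A of the full octamer. A match describes the letters and shows no binding.

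Itaconate libraries held between 20074299 and 22755248 estimated reads in genes, and NaCl libraries between 21015690 and 24144999. All 11 CD4 T cell markers read were present in every library. Of these, Cd4, Cd3e, Cd28 and Zap70 rose, Cd3g (log2 fold change -0.44, limma adjusted p = 0.0022) and Cd247 (-0.60, 0.0002) fell, and 5 did not pass. By the same test, 36.0% of all tested genes passed. With a library left out, Cd28 did not pass in 3 of 6 fits (without itaconate replicate 2, NaCl replicate 1 or NaCl replicate 3), and Zap70 passed only without itaconate replicate 3 or NaCl replicate 3. In limma without the intensity trend of the variance, Cd3e (adjusted p = 0.0501), Cd28 (0.0748) and Zap70 (0.0944) did not pass, nor did Zap70 with no filter on low values (0.0553). Cd4 ran from 13094 to 13962 normalized estimated counts (counts from here on) in itaconate libraries and from 8559 to 10191 in NaCl libraries. Cd8a and Cd8b1 together ran from 307.9 to 365 with itaconate and from 363 to 408 with NaCl. Itaconate replicate 3 stood apart: of 4739 changed genes that kept their own symbol (2 further entries of repeated symbols were left out), it was the itaconate library nearest the NaCl mean for 2785 (58.8%), against 1094 for replicate 1 and 860 for replicate 2. The labels do not say whether the 3 libraries of a group stem from different mice or cultures. All p-values therefore rest on a spread between libraries that may be technical.

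With itaconate, 5 of the 10 follicular helper genes rose, which were Bcl6, Pou2af1, Cxcr5, Il6st and Slamf6. Sh2d1a, Tox2, Btla and Cd200 did not pass the test, and Ascl2 lay under the filter of a mean of 10 and was not tested. A gene passed at an adjusted p under 0.05 in limma, fitted on log2(value + 1) over all 13180 tested genes with Benjamini-Hochberg adjustment. By that rule 18.2% of all tested genes were higher and 17.8% were lower with itaconate, 36.0% in all. None of the 9 follicular helper genes tested fell in limma (0, and 1 at an unadjusted p under 0.05, which was Cd200). The itaconate libraries lay wholly above the NaCl libraries for the 5 genes that rose, and the groups overlapped for the 4 others that were tested. Over all tested genes, 48.4% had groups that did not overlap. Every value stands relative to the rest of its library's RNA, and in bulk RNA fewer cells of a kind and less RNA per cell cannot be told apart.

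**Figure D1:**
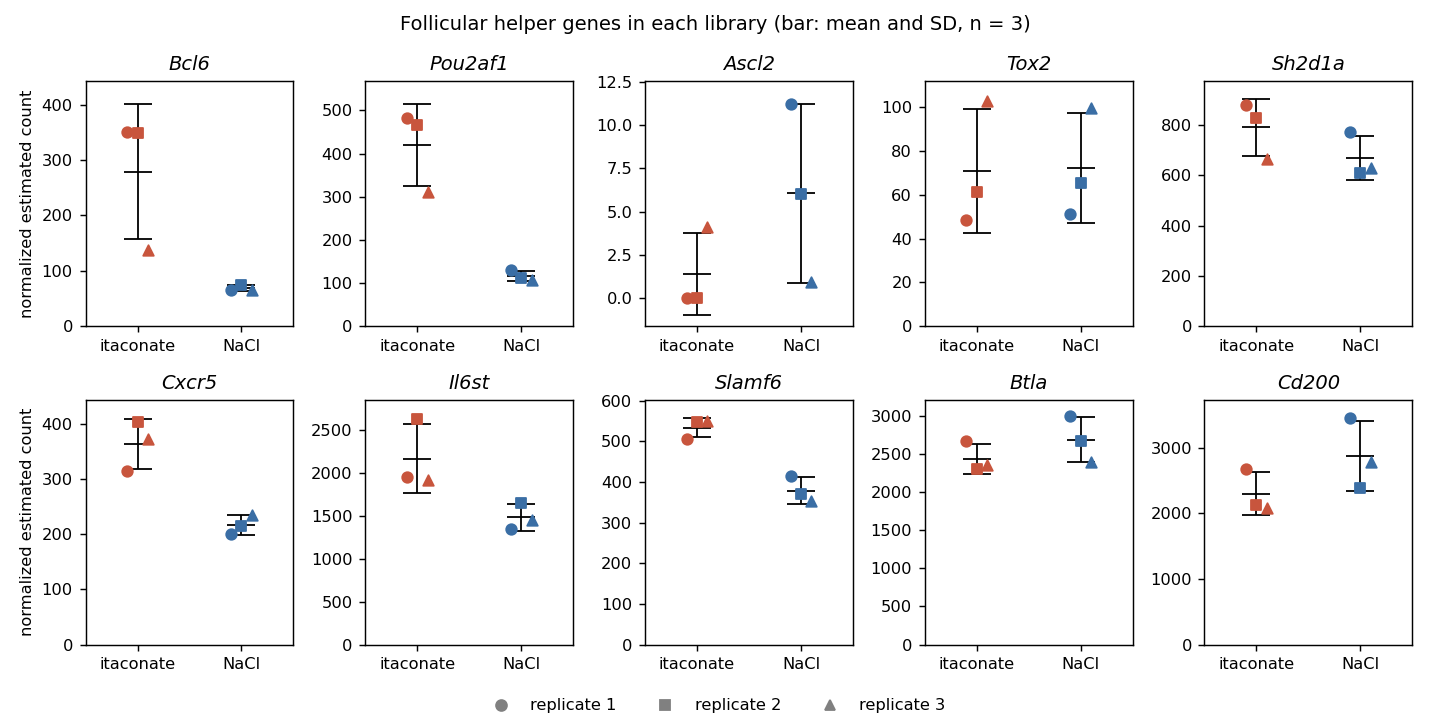
Normalized estimated count of each of the 10 genes (y axes, linear) in the 3 itaconate and the 3 NaCl libraries, with marker shapes for replicate numbers and black bars for the mean and SD. Bcl6 and Pou2af1 were above every NaCl library in all 3 itaconate libraries, with replicate 3 the lowest, whereas Tox2 covered the same range in both groups.

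Bcl6 rose most by fold. Its normalized estimated count was 349.8, 348 and 138 in itaconate libraries and 64.2, 74.3 and 65.4 in NaCl libraries, so every itaconate library was above the controls and replicate 3 was far below the other two. Bcl6 averaged 278 ± 122 with itaconate and 68.0 ± 5.53 with NaCl (SD, n = 3 each), which made 3.73-fold in the fitted values (log2 fold change 1.90 ± 0.32 SE, limma adjusted p = 0.000594). Without itaconate replicate 3 the log2 fold change of Bcl6 was 2.35 ± 0.22. The gene lies at chr16:23965052-23988852 on the minus strand (GENCODE M21, GRCm38), where 114 bases overlap Gm37419 on the other strand, which was at 0 in every library.

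Pou2af1, on the plus strand of chr9:51213708-51240080, followed closely. It had 483, 467 and 309.97 counts in itaconate libraries and 129.5, 112 and 106 in NaCl libraries, again with itaconate replicate 3 the lowest of its group and no overlap. The means were 419.9 ± 95.6 with itaconate and 116 ± 12.2 with NaCl (SD, n = 3 each), 3.55-fold apart in the fitted values (log2 fold change 1.83 ± 0.20 SE, limma adjusted p = 2.92e-05). Leaving out itaconate replicate 3 gave 2.03 ± 0.19. Both DNA-binding partners of the coactivator also rose. Pou2f1, which encodes OCT1, averaged 2151 ± 311 with itaconate and 1474 ± 71.3 with NaCl (log2 fold change 0.54 ± 0.11, limma adjusted p = 0.00249), and Pou2f2, which encodes OCT2, changed by 0.45 ± 0.09 (adjusted p = 0.00190).

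Because Pou2af1 is abundant in B cells, 17 B cell markers were read beside it. Of these, 13 passed the filter, Ighm rose, Ebf1 fell, and 11 did not pass the test, with a median log2 fold change of 0.48. By the same test, 36.0% of all tested genes passed. At an unadjusted p under 0.05, 3 of the markers were higher and 1 was lower. Spib, a transcription factor gene of B cells, had 39.3, 21.5 and 22.6 counts with itaconate and 11.2, 6.03 and 15.4 with NaCl, wholly above the controls (log2 fold change 1.31, 95% interval 0.14 to 2.47, limma adjusted p = 0.0752). Bank1, a B cell adaptor gene, was also above in every library (1.49, interval -0.08 to 3.07, adjusted p = 0.129). Pax5, which encodes a defining B cell transcription factor, had 58.9, 26.9 and 36.9 counts with itaconate and 30.6, 54.2 and 48.1 with NaCl. Ebf1 (-1.24, adjusted p = 0.023) did not pass without itaconate replicate 1 (0.0768), NaCl replicate 2 (0.0692) or NaCl replicate 3 (0.104). Spib, Bank1 and Pax5 were named after their values were seen. Ms4a1, which encodes CD20, stayed at or below 10.3 with itaconate and 13.6 with NaCl, and none of the 17 was at 0 in all libraries. The summed level of the 17 markers ran from 2351 to 2401 in itaconate libraries and from 1517 to 1842 in NaCl libraries. Without Ighm, which encodes the IgM heavy chain and rose by 0.70 ± 0.10 on the log2 scale (limma adjusted p = 0.0002), the sums ran from 619 to 701 with itaconate and from 537 to 679 with NaCl, and overlapped. The part of B cell RNA in the Pou2af1 values was not tested.

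**Figure D2:**
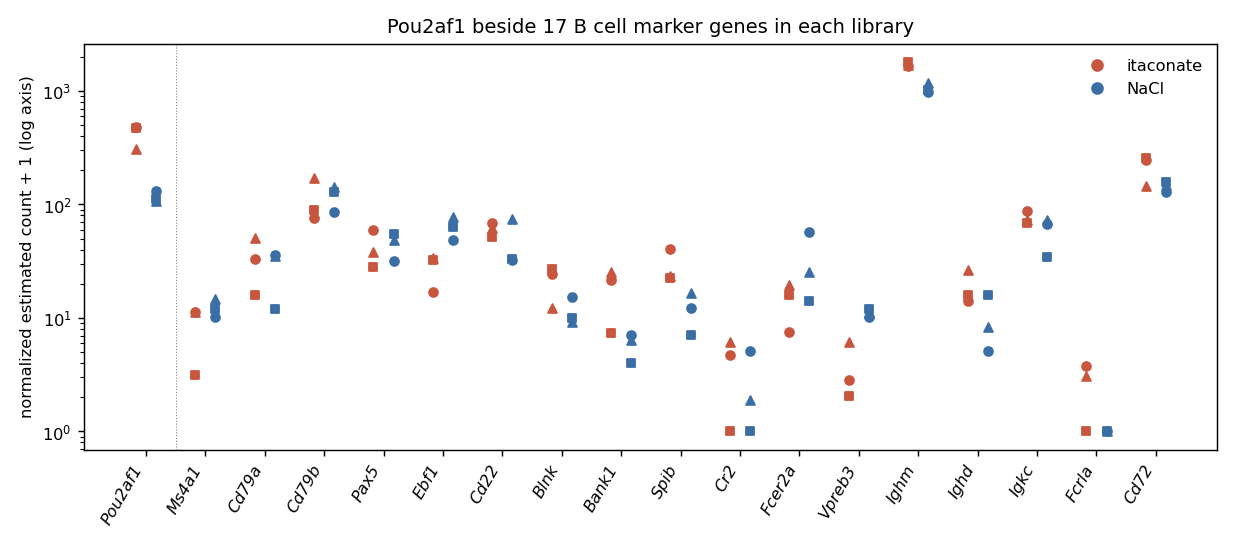
Normalized estimated count plus 1 (log axis) of Pou2af1 and of 17 B cell marker genes in each itaconate and NaCl library, with marker shapes for replicates 1 (circle), 2 (square) and 3 (triangle). The itaconate libraries lie wholly above the NaCl libraries for Pou2af1, Ighm, Spib and Bank1 and wholly below them for Ebf1 and Vpreb3, and the groups overlap for the other markers.

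The other 2 nuclear regulators gave no call. Tox2, an HMG box factor gene at chr2:163203125-163324170 (plus strand), had 48.6, 61.2 and 103 counts with itaconate and 51.0, 65.3 and 99.8 with NaCl. Its groups covered the same range, and the log2 fold change of -0.04 had a 95% interval from -0.79 to 0.71 (limma adjusted p = 0.941). Tox, its better known relative in exhausted and follicular helper cells, rose to 433 ± 65.0, against 139.5 ± 31.1 with NaCl (log2 fold change 1.64 ± 0.19, limma adjusted p = 5.35e-05). Ascl2, a basic helix-loop-helix gene at chr7:142966829-142969264 (minus strand), was listed at 0, 0 and 4.11 with itaconate and at 11.2, 6.03 and 0.908 with NaCl, too low to test.

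SAP connects SLAM family receptors to the kinase Fyn. Sh2d1a, its gene at chrX:42502453-42529330 (plus strand), had 881, 828 and 664 counts in itaconate libraries and 771, 608 and 631 in NaCl libraries. The groups overlapped, and the log2 fold change of 0.24 had a 95% interval from -0.06 to 0.54 (limma adjusted p = 0.203). Slamf6, a receptor that SAP binds, at chr1:171917515-171953170 (plus strand), had 506, 547 and 549 counts with itaconate and 415, 369.7 and 352 with NaCl. Every itaconate library was higher, by a log2 fold change of 0.50 ± 0.13 SE (limma adjusted p = 0.00915). Its antisense neighbour Gm37065 was at 7.14 or lower in every library.

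Other tested SLAM receptor genes fell or did not pass, while genes of the signalling proteins linked to them moved in both directions. Of 9 tested genes of the SLAM family and SAP signalling, 2 rose and 4 fell, with a median log2 fold change of -0.14. Of all tested genes, 18.2% were higher and 17.8% were lower. The median over all tested genes was -0.000883. Slamf7 had 828, 868 and 1047 counts with itaconate and 3007, 3841 and 3302 with NaCl (log2 fold change -1.89 ± 0.12 SE, limma adjusted p = 5.97e-07). Slamf1, which encodes the founding receptor of the family, fell to 1278 ± 429, against 2919.7 ± 265 with NaCl (-1.24 ± 0.18, adjusted p = 0.000198), and Ly9 changed by -0.74 ± 0.09. Fyn and Ptpn6, named after their values were seen, rose by 0.35 ± 0.09 (adjusted p = 0.00826) and 0.35 ± 0.11 (0.0281). In limma without the intensity trend neither passed (0.053 and 0.124), and with a library left out Ptpn6 passed only without itaconate replicate 3. Prkcq, also named after its value was seen, changed by -0.67 ± 0.12 (limma adjusted p = 0.0009).

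Cxcr5 was higher in every itaconate library than in any NaCl library. The gene, at chr9:44511787-44561877 on the minus strand, had 314, 403 and 374 counts with itaconate and 199.9, 215 and 235 with NaCl. The fitted difference was 1.67-fold (log2 fold change 0.74 ± 0.16 SE, limma adjusted p = 0.00307). Bcl9l, which overlaps 110 bases of Cxcr5 on the opposite strand, was also higher, at 1071, 1189 and 1100 counts with itaconate and 656, 696 and 792 with NaCl (log2 fold change 0.65 ± 0.11, limma adjusted p = 0.000691). The strand setting of the counting is not given in the sources used here, and the part of Bcl9l reads in the Cxcr5 values was not tested. Cxcl13, which encodes the ligand of CXCR5, was listed at 0 in all 6 libraries.

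Il6st encodes gp130, the signalling chain shared by receptors for IL-6, IL-27 and related cytokines, and lies at chr13:112464070-112510086 (plus strand). It had 1950.1, 2625 and 1910.1 counts with itaconate and 1340.0, 1652 and 1454 with NaCl, with no overlap and itaconate replicate 2 the highest. The log2 fold change was 0.53 ± 0.13 SE (limma adjusted p = 0.00626). In limma without the intensity trend of the variance the call ended (adjusted p = 0.0572), within a range of 0.000353 to 0.0572 over all settings. Il6ra, the ligand-binding chain for IL-6, had 1102, 1378 and 1610.4 counts with itaconate and 1374, 1452 and 1650.0 with NaCl (log2 fold change -0.14, 95% interval -0.43 to 0.15, limma adjusted p = 0.432). Of 10 tested genes of gp130 cytokine receptors and signalling, 1 rose and 2 fell (median log2 fold change -0.10), beside 36.0% of all tested genes called. Il11ra1, the IL-11 receptor chain, rose by 0.76 ± 0.19, while Jak2 changed by -0.64 ± 0.10 and Il21r, the IL-21 receptor gene, by -0.56 ± 0.14.

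Btla and Cd200 encode inhibitory surface proteins of the immunoglobulin superfamily. Btla, at chr16:45224315-45257670 (plus strand), had 2666, 2301 and 2349 counts with itaconate and 2995, 2672 and 2399 with NaCl, and the groups overlapped (log2 fold change -0.14, 95% interval -0.36 to 0.08, limma adjusted p = 0.320). Cd200, on the minus strand of chr16:45382135-45409053, had 2680.5, 2134 and 2082 counts with itaconate and 3450.1, 2387 and 2783.0 with NaCl. Its log2 fold change of -0.31 had a 95% interval from -0.61 to -0.02 and did not pass after adjustment (limma adjusted p = 0.0874). Cd200 passed as lower when itaconate replicate 1 was left out (adjusted p = 0.0269) and when NaCl replicate 2 was (0.0368), in a range of 0.00668 to 0.328 over all settings. The partner genes gave little. Tnfrsf14, which encodes the BTLA ligand HVEM, averaged 584 ± 101 with itaconate and 514 ± 75.5 with NaCl (adjusted p = 0.404), and Cd200r1, the receptor of CD200, 49.1 ± 1.32 with itaconate and 69.8 ± 16.4 with NaCl (adjusted p = 0.228). Of 7 tested partners, 0 rose and 2 fell in limma (0 and 2 at an unadjusted p under 0.05), beside 36.0% of all tested genes called. Those that fell were Lta (-1.35 ± 0.15), a lymphotoxin gene, and Dok2 (-0.40 ± 0.11), an adaptor gene.

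**Figure D3:**
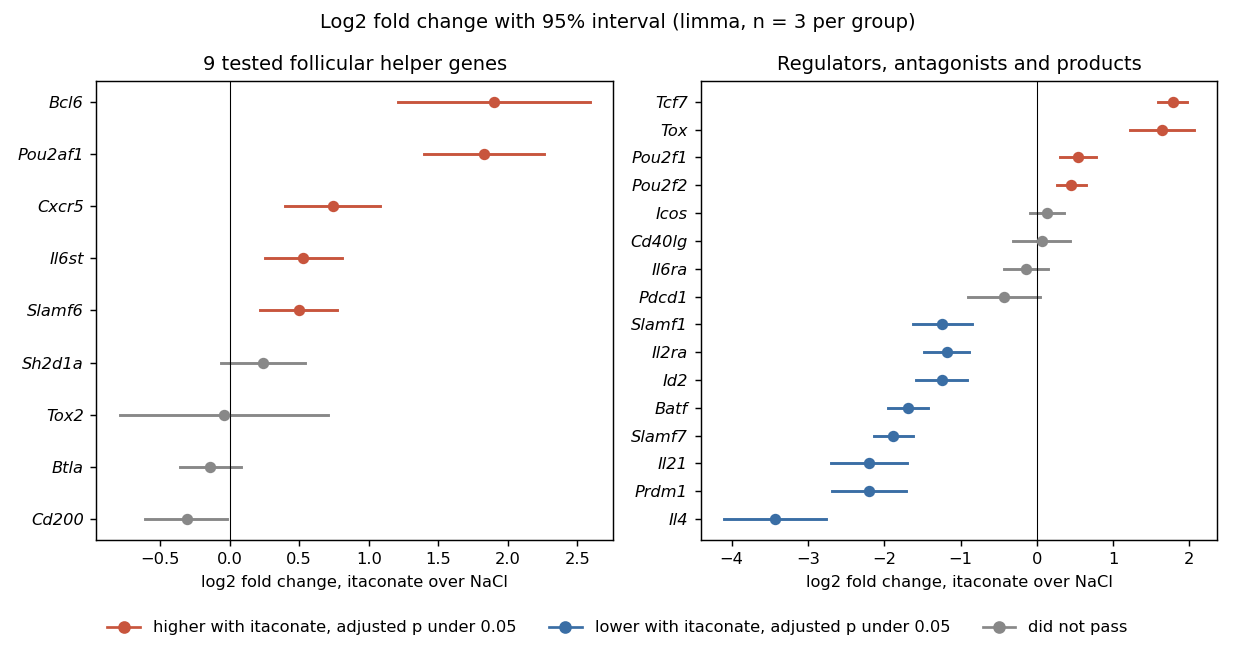
Log2 fold change of itaconate over NaCl (x axes) with its 95% interval. The left panel holds the 9 tested follicular helper genes, and the right panel selected genes of their regulators, antagonists and products. Of the antagonists, the right panel holds Prdm1, Il2ra and Id2, which fell, and none of the 5 that rose. Bcl6 at 1.90 and Pou2af1 at 1.83 lie furthest right among the 9, while Prdm1 and Il21 both lie at -2.20.

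Levels were set beside each other per kilobase of exon, with all annotated exons of a gene merged. The transcript forms in use were not determined, so orders between genes depend on these merged lengths. With itaconate the order of the mean normalized estimated count per kilobase was Btla (718 ± 58.3), Cd200 (692 ± 99.8), Il6st (195 ± 36.2), Pou2af1 (165 ± 37.5), Sh2d1a (144 ± 20.55), Cxcr5 (109 ± 13.5), Slamf6 (49.3 ± 2.24), Bcl6 (41.6 ± 18.2), Tox2 (20.8 ± 8.31) and Ascl2 (0.843 ± 1.46; SD, n = 3). In NaCl libraries the order was Cd200 (865 ± 162), Btla (792 ± 87.9), Il6st (133.5 ± 14.25), Sh2d1a (122 ± 16.05), Cxcr5 (65.0 ± 5.30), Pou2af1 (45.4 ± 4.795), Slamf6 (35.0 ± 2.996), Tox2 (21.2 ± 7.385), Bcl6 (10.15 ± 0.826) and Ascl2 (3.73 ± 3.18). Among neighbours in this order, the libraries of Btla and Cd200 overlapped in both groups, and those of Il6st and Sh2d1a overlapped in the NaCl group. In the itaconate group Pou2af1 overlapped with Il6st and with Sh2d1a, Sh2d1a with Cxcr5, and Bcl6 with Slamf6 and with Tox2. In the NaCl group every Pou2af1 value lay below every value of Il6st, Sh2d1a and Cxcr5, and every Bcl6 value below every value of Tox2.

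The genes whose pattern over the 6 libraries was most like that of Bcl6 were Arhgef39, Vdr and Cd38, among 10185 candidates with a mean of at least 50. Genes with names of predicted genes, clones or pseudogenes were left out of the candidates. After each gene was centred on its own mean, their log2 values differed from those of Bcl6 by a root mean square of 0.238, 0.248 and 0.254. Vdr, which encodes the vitamin D receptor, had 498, 424 and 279 counts with itaconate and 111, 124 and 125 with NaCl. Cd38, which encodes a NAD-consuming surface enzyme, had 148, 132 and 73.9 counts with itaconate and 34.7, 48.2 and 32.7 with NaCl. Gprin3, Ppm1l and Fbln1 were closest to Pou2af1 (0.0789, 0.112 and 0.12). Fbln1, which encodes the matrix protein fibulin-1, had 388, 398.5 and 296 counts with itaconate and 97.9, 100.5 and 99.8 with NaCl. These likenesses are descriptions over 6 libraries in 2 groups. All 6 genes were lower in every NaCl library than in any itaconate library. Among the itaconate libraries they were lowest in replicate 3.

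In 9 lists of genes around the program, 17 of 87 distinct tested genes rose, 31 fell and 39 did not pass. Thus 55.2% were called, beside 36.0% of all tested genes. The lists were chosen with earlier results of these data known, so the difference between these shares is no test of enrichment. In the fit of genes with a mean of at least 100, 4228 of 10017 genes were called. Genes of follicular helper cytokines and surface proteins fell more often than they rose. Of 11 tested cytokine and surface genes 1 rose and 6 fell (median log2 fold change -0.56). Il21, the signature cytokine gene of follicular helper cells, had 702, 815 and 1619 counts with itaconate and 3939, 4721 and 4841 with NaCl (log2 fold change -2.20 ± 0.23 SE, limma adjusted p = 2.26e-05), with itaconate replicate 3 the nearest to the controls. Il4, which germinal centre cells also use, fell to 41.7 ± 18.1, against 429 ± 46.8 with NaCl (-3.43 ± 0.31, adjusted p = 7.28e-06), and Tnfsf8, which encodes CD30 ligand, changed by -1.35 ± 0.20. Angptl2 was the gene of this list that rose (0.81 ± 0.22, adjusted p = 0.0134, named after its value was seen), and it did not pass without itaconate replicate 1 (0.0553) or without NaCl replicate 1 (0.0525).

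Transcripts of other surface proteins used to identify the cells did not pass. Icos, a costimulatory receptor gene, had 3495, 3488 and 4312 counts with itaconate and 3667, 3455 and 3159 with NaCl (log2 fold change 0.13, 95% interval -0.09 to 0.35, limma adjusted p = 0.345). Pdcd1, which encodes PD-1, had 335, 219 and 454 counts with itaconate and 435, 404 and 465 with NaCl (log2 fold change -0.43, 95% interval -0.90 to 0.04, adjusted p = 0.140). Without itaconate replicate 3 Pdcd1 passed as lower (adjusted p = 0.0111) within a range of 0.0111 to 0.548 over all settings. Cd40lg, the CD40 ligand gene, averaged 455 ± 120 with itaconate and 425 ± 27.7 with NaCl (adjusted p = 0.801).

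Among 14 regulators listed as favouring the program, 3 rose, 6 fell and 5 did not pass (median log2 fold change -0.23). Of all tested genes, 18.2% were higher and 17.8% were lower. The regulators that rose were Tcf7, Tox and Id3. Id3 is a relative of Id2, which was listed among the antagonists, so its place in this list is open. Tcf7, which encodes TCF-1, had 14375, 14240.0 and 12906 counts with itaconate and 4381, 3810.3 and 3923 with NaCl (log2 fold change 1.78 ± 0.09 SE, limma adjusted p = 1.97e-07). Batf, an AP-1 factor gene needed for the lineage, fell to 665 ± 102, against 2131 ± 154 with NaCl (-1.69 ± 0.12, adjusted p = 1.74e-06). Irf4 (-1.32 ± 0.21) and Stat3 (-0.67 ± 0.09) also fell and were named after their values were seen.

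Among 17 antagonists of the program, 9 fell, 5 rose and 3 did not pass (median log2 fold change -0.34). Of all tested genes, 17.8% were lower and 18.2% were higher. Prdm1, the Blimp-1 gene, had 77.6, 139 and 145 counts with itaconate and 464, 599.7 and 556 with NaCl (log2 fold change -2.20 ± 0.23 SE, limma adjusted p = 2.03e-05). Per kilobase of exon, Bcl6 had 52.2, 51.9 and 20.5 and Prdm1 13.9, 24.8 and 25.9 in itaconate replicates 1, 2 and 3. In NaCl replicates 1, 2 and 3, Bcl6 had 9.59, 11.1 and 9.75 and Prdm1 83.2, 108 and 99.7. Bcl6 was thus the higher of the pair in itaconate replicates 1 and 2, and Prdm1 was the higher in itaconate replicate 3 and in every NaCl library. This order depends on the merged exon lengths (6700 bases for Bcl6 and 5579 for Prdm1). In itaconate replicate 3 the counts were close, at 138 for Bcl6 and 145 for Prdm1. Il2ra, the IL-2 receptor alpha chain gene, fell to 17716 ± 4390, against 39488 ± 1220 with NaCl (-1.18 ± 0.14, adjusted p = 4.13e-05), and Id2, an inhibitor of E proteins, changed by -1.25 ± 0.16. Stat5a, which encodes one of the STAT5 proteins, changed by -0.63 ± 0.10. The 5 antagonists that rose were Ccr7, Klf2, S1pr1, Selplg and Foxp1, among them the chemokine receptor gene Ccr7 (0.70 ± 0.10) and the quiescence factor gene Klf2 (1.32 ± 0.24). Stat5a and these 5 genes were named after their values were seen. In limma without the intensity trend, S1pr1 (adjusted p = 0.0531), Selplg (0.0861) and Foxp1 (0.105) did not pass, nor did Foxp1 with no filter on low values (0.061). S1pr1 did not pass without itaconate replicate 2 (0.0604), and Selplg did not pass without NaCl replicate 1 (0.0566). Foxp1 did not pass without itaconate replicate 1 (0.121) or 2 (0.0965), or without NaCl replicate 2 (0.0805) or 3 (0.146).

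**Figure D4:**
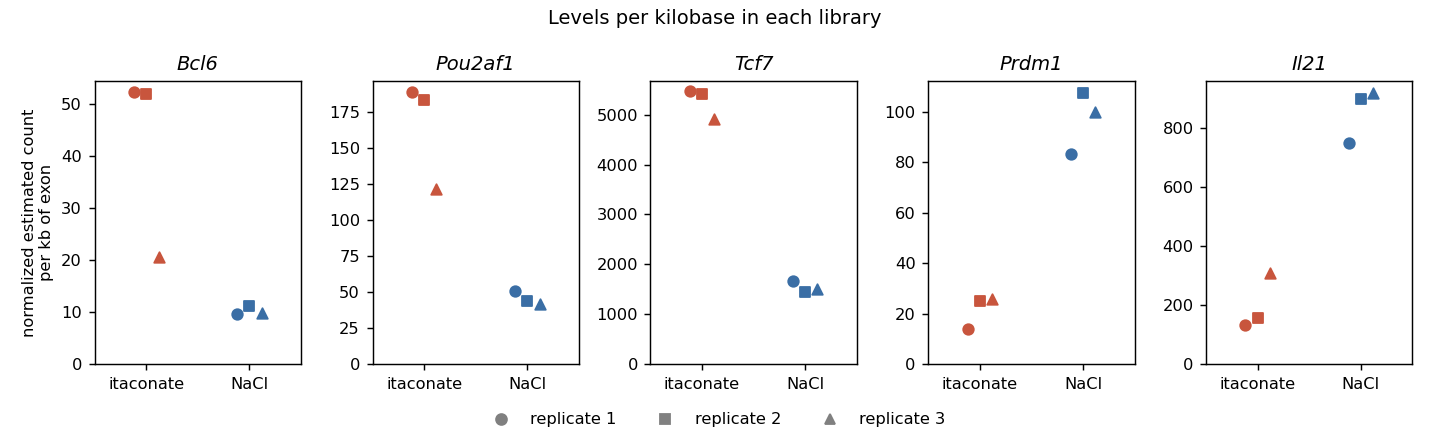
Normalized estimated count per kilobase of exon (y axes, from 0) of Bcl6, Pou2af1, Tcf7, Prdm1 and Il21 in each itaconate and NaCl library, with marker shapes for replicate numbers. The first 3 genes are above the controls in every itaconate library and Prdm1 and Il21 are below, with Bcl6 at 20.5 in itaconate replicate 3.

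Of 13 tested genes of BCL6's corepressor complexes, 3 rose, 2 fell and 8 did not pass (median log2 fold change 0.07), a share near the 36.0% called over all tested genes. Tbl1xr1, a subunit of the NCOR and SMRT complexes, had 2432, 2628 and 2385 counts with itaconate and 1539, 1869.5 and 1444 with NaCl (log2 fold change 0.62 ± 0.11 SE, limma adjusted p = 0.000724). The deacetylase genes Hdac5 and Hdac3 went in opposite directions, with log2 fold changes of 0.53 ± 0.10 and -0.44 ± 0.11. Without itaconate replicate 2, 3 genes of this list were called in all. In the list of octamer factors and OBF1 relatives, 2 of 5 tested genes rose, 0 fell in limma (0 at an unadjusted p under 0.05) and the 3 SIAH ubiquitin ligase genes did not pass. Of the other TOX genes, Tox rose, Tox4 did not pass and Tox3 lay under the filter.

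**Figure D5:**
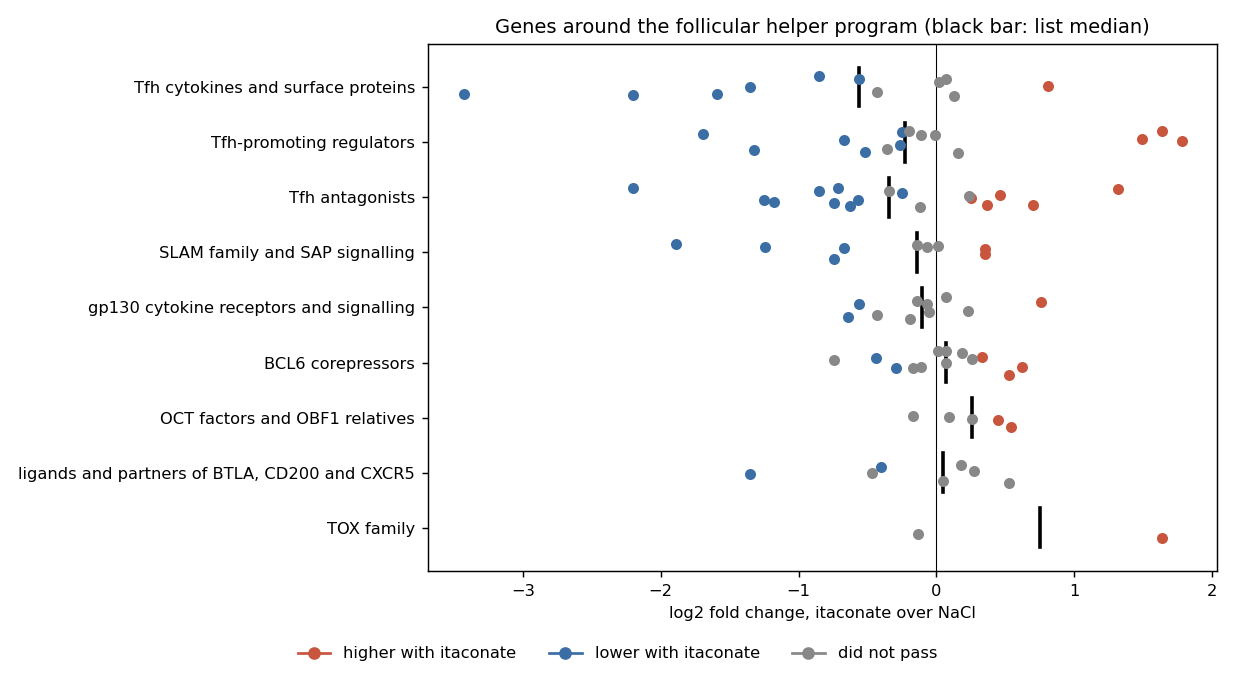
Log2 fold change of itaconate over NaCl (x axis) of every tested gene in 9 lists around the follicular helper program, with 1 point per gene, colours for the call and a black bar at each list's median. Points of the antagonist list lie on both sides of 0, with Prdm1 at -2.20 and Klf2 at 1.32, and the median of the cytokine and surface list is -0.56.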

How the data were processed

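The submitters' processing notes name STAR 2.7.0f, RSEM 1.3.0 and the mouse build mm10. For the annotation, size factors, strand setting and filters, the sources used here give nothing. The deposited values are 1 table of estimated counts that the authors normalized, a non-negative signal for each gene symbol in each library. RNA had an integrity number above 7, per the labels' protocols. Depth was estimated from the value of 1 read in each library. Between 79.9% and 82.2% of values above 0 were whole reads within 0.02, so reads were not recovered and no count model was used. Replicates differed by more than sampling noise (chi-square per gene 12.8 to 25.7).

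Where a symbol had several entries (107 symbols), its name went to the one with the largest mean. Genes with a mean of at least 10 were tested on log2(value + 1) with limma 3.58.1 (R 4.3.3), with an intensity trend, two-sided and with no covariate, after the same script had been tested on simulated data. Fold changes are on that scale and understate the change of low genes. The members, lists and naming rule were chosen with earlier results of these data known. One gene of the B cell marker list is not reported here. Named are the members, of each list up to 3 genes that passed with the smallest p, Il21, Icos, Pdcd1, Cd40lg, Il6ra, Prdm1, Tcf7, Pou2f1, Pou2f2, Tnfrsf14, Cd200r1 and Tox in any case, and the 3 genes most like Bcl6 and the 3 most like Pou2af1. The alternatives were other pseudocounts, filters and scalings, limma without the trend or with robust variances, the replicate number as a block, and each library left out.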

Additional observations from a re-analysis of the deposited data

How the results depend on the processing

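The 5 genes that rose (Bcl6, Pou2af1, Cxcr5, Il6st and Slamf6) stayed higher under every setting run, except that Il6st did not pass in limma without the intensity trend. The number of the 10 genes called lower was 1 with the replicate number as a block and ranged from 0 to 1 with a library left out. That 1 gene was Cd200 each time (log2 fold change -0.31 with the block, adjusted p = 0.00668). Same-numbered libraries deviated together with correlations of 0.146, 0.0383 and 0.128, so the numbers were not taken as pairs, although each library correlated best with its own number. The block gave 5636 changed genes instead of 4741, 5 changed genes in the gp130 list instead of 3, and Pdcd1 passed (adjusted p = 0.0499). Leaving out a library gave 3478 to 4998 changed genes, and limma without the trend 3651. The log2 fold change of Tox2 turned positive with quantile normalization (0.02) and without itaconate replicate 1 (0.19), itaconate replicate 2 (0.03) or NaCl replicate 3 (0.22), in a range from -0.34 to 0.22 with a library left out. In the same range of fits Cd40lg lay between -0.13 and 0.24, and Il6ra between -0.27 and 0.00, both turning round without itaconate replicate 1. Without the trend, 9 antagonists were called instead of 14, 3 corepressor genes instead of 5, and 1 partner gene instead of 2, and Il21r (adjusted p = 0.073) and Dok2 (0.0511) did not pass. Dok2 also did not pass without NaCl replicate 3 (0.0596), where 1 partner gene was called. The cause of these changes was not tested. Of 642 values under alternatives for the genes named by rule, 627 kept their direction and side of the threshold. For 25 called genes outside the rule, which did not include Prkcq, 44 of 371 values lost the call, among them those of Ptpn6, Foxp1, Cd68 and Zap70. Low values limit Ascl2, and 3 libraries a group limit all tests.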

Other observations

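Some transcripts best known from other cell types were higher with itaconate. Eomes, a T-box factor gene of NK and cytotoxic T cells, had 202, 236 and 204 counts with itaconate and 127, 95.4 and 109.8 with NaCl (log2 fold change 0.95, limma adjusted p = 0.0024), and the other 5 NK cell markers had means under 10. The summed level of 10 macrophage and monocyte markers ran from 188 to 215 with itaconate and from 75.5 to 120.5 with NaCl, with 7 of the 10 at means under 10. Of these, Itgam, which encodes CD11b, had 39.3, 70.1 and 67.7 counts with itaconate and 11.2, 7.03 and 24.5 with NaCl (adjusted p = 0.0052). Cd68, a lysosomal protein gene, had 152, 96.7 and 82.1 counts with itaconate and 40.8, 66.3 and 63.5 with NaCl (adjusted p = 0.0319), and did not pass when any library but itaconate replicate 3 or NaCl replicate 2 was left out (0.052 to 0.143). The other tested macrophage and monocyte marker, Fcgr3 (log2 fold change -0.11), did not pass and its groups overlapped. The summed level of 7 dendritic cell markers ran from 138.6 to 184 with itaconate and from 98.9 to 131 with NaCl, with 4 of the 7 at means under 10 and 2 of these at 0 in all libraries. Zbtb46, a dendritic cell transcription factor gene, had 131, 128 and 109.8 counts with itaconate and 84.6, 82.4 and 52.6 with NaCl (log2 fold change 0.77, adjusted p = 0.0324). It did not pass without itaconate replicate 1 (0.0874), itaconate replicate 2 (0.0957) or NaCl replicate 3 (0.127). The other tested dendritic cell markers, Flt3 (log2 fold change -0.25) and Itgax (-0.13), did not pass and their groups overlapped.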
